A study of Mus musculus with 4 samples.

Results

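The deposited table lists 15746 genes, and 173 of them have the Ensembl biotype snRNA, miRNA, misc_RNA, ribozyme or rRNA and lie outside the mitochondrial chromosome, with Mir6240 left out. They comprise 66 snRNA, 72 rRNA, 18 misc_RNA, 15 miRNA and 2 ribozyme genes, and all 173 have the same position and biotype in GENCODE M21 on GRCm38. The values come from hearts of adult wild-type mice, with 2 libraries of isolated mitochondria (mitochondria 1 and 2) and 2 libraries of the remaining tissue, the rest fraction (rest 1 and 2). All animals were wild type, no transgene or drug was involved, and the sources used here do not say whether libraries of a fraction came from separate animals, so p-values measure the spread between these libraries, which may be technical. The rest fraction was the pellet of a low-speed spin, which collects nuclei, fibres and debris. The mitochondria were opened at their outer membrane with digitonin and treated with RNase A before RNA isolation, and their RNA was fragmented for an adjusted time, so that these steps and the fraction cannot be told apart.

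Small nuclear RNAs (snRNAs) are the RNA cores of the spliceosome, the machine that removes introns in the nucleus. U1 and U2 find the start of the intron and its branch point, U4, U5 and U6 then join as one particle, and U12 takes the place of U2 at a rare class of introns. The remaining small RNAs work in other places: 7SK holds back the elongation kinase of RNA polymerase II in the nucleus, 7SL is the core of the signal recognition particle that brings ribosomes to the endoplasmic reticulum, 5S and 5.8S rRNA are parts of the cytosolic ribosome, Y RNAs bind the Ro protein, vault RNA sits in the vault particle, and microRNAs guide silencing of mRNAs. Several of these RNAs, such as U1, U2 and 5S, are made from many gene copies that differ by few or no bases.

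A gene of the U1, U2, U4 and U12 families is printed as listed in GENCODE M21 for GRCm38, with the stretch that pairs with its target in capitals. U1 is Rnu1a1 (chr11:87422867-87423030, plus strand), and its capitals pair with the 5′ splice site. U2 is Rnu2-10 (chr11:101658238-101658428, plus strand), with the stretch that pairs with the branch point. U4 is Gm24265 (chr5:115489459-115489599, plus strand), with a stretch that pairs with U6. U12 is Rnu12 (chr15:83149644-83149794, plus strand), with the stretch that pairs with the branch point of minor introns.
U1: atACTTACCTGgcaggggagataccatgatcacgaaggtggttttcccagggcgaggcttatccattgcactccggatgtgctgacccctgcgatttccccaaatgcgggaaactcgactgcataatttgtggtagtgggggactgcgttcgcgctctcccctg
U2: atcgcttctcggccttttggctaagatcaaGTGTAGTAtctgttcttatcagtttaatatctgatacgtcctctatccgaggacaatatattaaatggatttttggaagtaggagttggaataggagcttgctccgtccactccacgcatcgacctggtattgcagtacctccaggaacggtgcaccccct
U4: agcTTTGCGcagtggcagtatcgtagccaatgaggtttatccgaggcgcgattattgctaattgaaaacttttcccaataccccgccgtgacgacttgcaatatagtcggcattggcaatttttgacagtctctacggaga
U12: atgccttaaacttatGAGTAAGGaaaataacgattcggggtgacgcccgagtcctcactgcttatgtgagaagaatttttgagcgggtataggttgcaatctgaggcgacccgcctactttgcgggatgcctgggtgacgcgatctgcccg

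These stretches were searched, on the strand of the transcript, in all members of these families and in 1383 snRNA transcripts of the annotation. ACTTACCTG was present in 25 of the 29 U1 genes of the table and in 3.98% of the annotated snRNA transcripts. GTGTAGTA was present in 14 of the 15 U2 genes and in 2.24% of the transcripts. TTTGCG was present in all 3 U4 genes against 1.88%, and GAGTAAGG in 1 of the 2 U12 genes against 0.289%. None of these stretches contains another. Most of the U1 and U2 genes in the table thus carry the pairing sequence of their family, and the copies also share most of their other bases.

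The 4 libraries differed strongly in what they held. About 4.74e+07 and 3.21e+07 reads fell on genes in mitochondria 1 and 2 and about 2.63e+07 and 2.35e+07 in rest 1 and 2, and the mitochondrial chromosome took 97.6%, 93.5%, 63.2% and 67.5% of the normalized counts. A normalized count is the number of reads on a gene divided by a size factor for the library. A single read was worth 3.87 and 2.55 normalized counts in mitochondria 1 and 2 but 0.264 and 0.365 in rest 1 and 2, so low values are less precise in the mitochondria. Of the genes outside the mitochondrial chromosome, the small RNAs took 8.33% and 4.12% of the normalized counts in mitochondria 1 and 2 and 7.52% and 12.3% in rest 1 and 2, which overlap between the fractions. The 6 heart muscle markers Myh6, Tnnt2, Actc1, Myl2, Myl3 and Ryr2 were high in every library, with sums of 274672, 204664, 235366 and 206224 normalized counts, to which Myh6 gave the most. Of the 6, Myl3 was called higher in the mitochondria (11634 and 9923 against 3976 and 3106 normalized counts, adjusted p = 0.0469), while Ryr2 had 10159 and 6395 against 22792 and 18549 and was not called (adjusted p = 0.0755).

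Among the small RNAs that could be tested, U2 was lower in the mitochondria, the other snRNAs lay on the same side with 1 gene called, and 7SL and vault RNA lay on the opposite side without passing the test. Of the 173 genes, 127 reached 10 normalized counts in at least 2 libraries and were tested, together with all other genes, by limma with Benjamini-Hochberg adjustment over 12150 genes. Of the 127, 7 were lower in the mitochondria at an adjusted p under 0.05 and 0 were higher, while 3.55% of all genes tested were called in either direction, 1.39% lower and 2.16% higher. At an unadjusted p under 0.05, 19 were lower and 4 were higher, beside 16.2% and 14.1% of all genes tested, so that the count of lower genes was near the share over all genes. The 7 were 6 U2 genes and 1 U5 gene. By biotype, the median log2 fold change (mitochondria minus rest) was −1.80 over 43 snRNA genes, all 43 negative, 0.26 over 61 rRNA genes, 0.43 over 14 misc_RNA genes, −0.25 over 7 miRNA genes and 0.74 over 2 ribozyme genes, beside −0.14 over all genes tested. Some snRNA genes, among them every tested U5 and U6 gene, Rnu12 and the called Gm25939, reached 10 normalized counts in the rest libraries alone. The filter thus fixed their sign. Of the 7 miRNA genes, 6 were near-identical entries of 56 or 57 bases, and the other was Mir6236. In such bulk fractions, fewer cells of a type and less RNA per cell cannot be told apart, nor can more of an RNA and less of the other RNA.

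**Figure D1:**
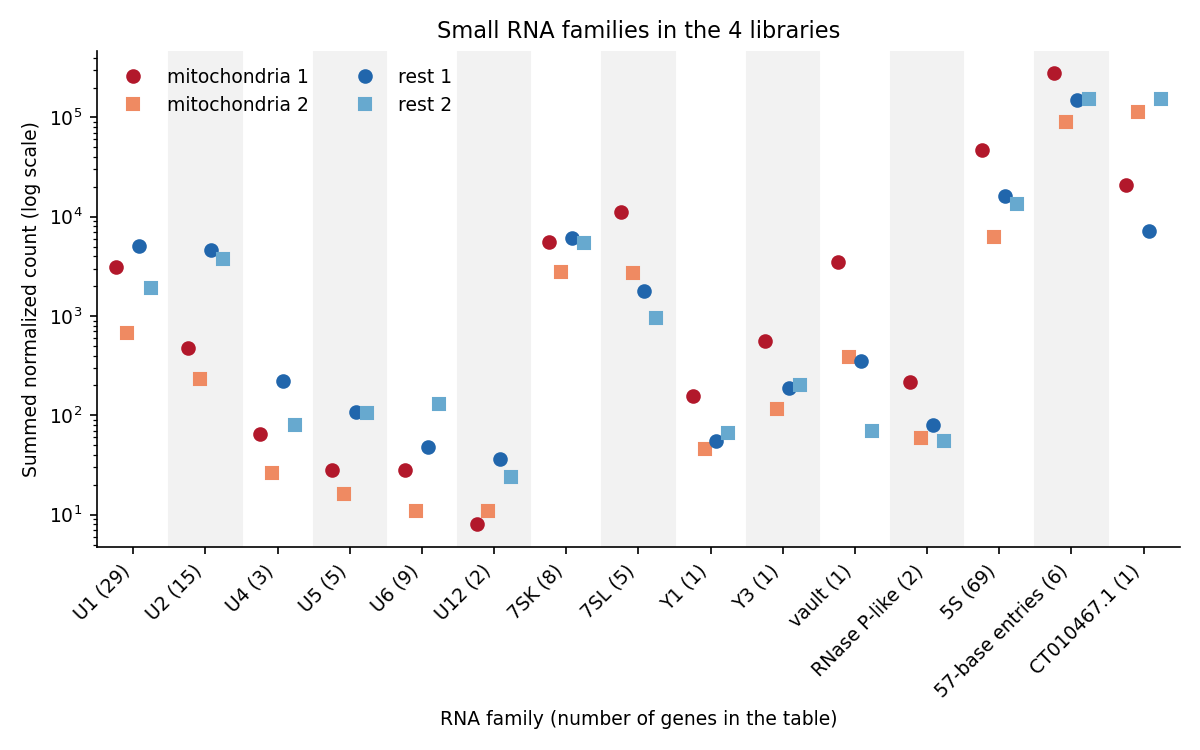
Summed normalized count (log scale) of each RNA family in the 4 libraries, with the number of genes in the table in brackets; 1 of the 57-base entries has 56 bases. The mitochondria (red and orange) lie below the rest fraction (blue) for U2, U4, U5, U6 and U12 and above it for 7SL and vault RNA, and most families differ between the 2 mitochondrial libraries.

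U2 showed the clearest difference. The 15 U2 genes summed to 480 and 230 normalized counts in mitochondria 1 and 2 and to 4616 and 3748 in rest 1 and 2, which is 355 ± 177 against 4182 ± 614 (SD, n = 2 libraries each) and 11.8 times more in the rest fraction. In all 12 U2 genes tested both mitochondrial values lay below both rest values, a pattern seen in 33.4% of all genes tested. Their log2 fold changes ran from −4.45 to −1.98, with a median of −3.62. Of the 12, Gm22973 (4 and 3 against 23 and 12 normalized counts) and Gm25939 reached 10 in the rest libraries alone. For these genes the filter fixed the pattern. The 3 long RNAs that stay in the nucleus and served as its markers, Malat1, Neat1 and Kcnq1ot1, moved the same way, from a sum of 42937 and 45482 normalized counts in the rest fraction to 13648 and 8699 in the mitochondria. None of the 3 was at 0 in any library and none was called (adjusted p from 0.0522 to 0.0551), and their part in the U2 values was not tested. Without any one library, or with a pseudocount of 0.1 in place of 1, limma called no gene of the whole table, and the U2 median ran from −3.99 without mitochondria 1 to −2.94 without mitochondria 2.

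The 4 U2 genes Rnu2-10, Gm23849, Gm23971 and Gm24950 have the same sequence of 191 bases, the one printed above. Rnu2-10 had 70 and 20 normalized counts in the mitochondria and 535 and 433 in the rest fraction. Gm23849 had 23 and 36 against 394 and 473, and Gm23971 had 54 and 36 against 608 and 590. Gm24950 had 81 and 15 against 601 and 642. The fractions were far apart in all 4 genes, and of these only Gm23849 was lower in mitochondria 1 than in mitochondria 2. Gm23849 (−3.86 ± 0.29, log2 fold change ± SE, adjusted p = 0.0427) and Gm23971 (−3.73 ± 0.26, adjusted p = 0.0427) passed the test. Rnu2-10 (−3.64 ± 0.61, adjusted p = 0.0528) and Gm24950 (−4.10 ± 0.79, adjusted p = 0.0600) did not. A read that lies wholly in this sequence fits all 4 genes, so these genes are not independent and were counted here as deposited.

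The tested U2 genes that differ from Rnu2-10 by a few bases also had lower values in the mitochondria, and 4 of them were called. Positions are counted from 1 at the 5′ end of Rnu2-10, with its base first. Gm26316 (C170T) had 77 and 46 normalized counts in the mitochondria and 855 and 632 in the rest fraction, the highest value of the family in rest 1, and its log2 fold change was −3.60 ± 0.32 (adjusted p = 0.0427). Gm23472 and Gm23444 (both G109C) had 19 and 20 against 394 and 183, and 43 and 15 against 414 and 229. Of the pair, Gm23472 (−3.72 ± 0.42, adjusted p = 0.0427) passed the test while Gm23444 (−3.54 ± 0.58, adjusted p = 0.0522) did not. Gm24497 (G109C and C186A) had 43 and 23 against 431 and 269 (−3.39 ± 0.41, adjusted p = 0.0427). Gm25939 (T69C, C78T and G109C) was called as well (−4.45 ± 0.32, adjusted p = 0.0427), but its 4 and 5 normalized counts in the mitochondria were 1 and 2 reads. From the reads, Gm25939 was 25.9 times more abundant in the rest fraction (95% exact interval 8.83 to 126, counting error only), where it had 125 and 112 normalized counts. Gm25813 (C78T and G131C) had 19 and 3 against 84 and 54, and Gm25360, with 4 changed bases, had 39 and 8 against 142 and 110, and neither was called (adjusted p = 0.105 and 0.0973).

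Among the tested U2 genes, values of a host gene can be given only for Gm23849. Gm23472, Gm24497 and Gm25939 lie on chromosome 1 in an intron of the long noncoding gene D230017M19Rik, on the same strand, and that gene is not analysed here. Gm23849 lies on chromosome 11 in an intron of Rdm1, on the same strand, and Rdm1 had 19 and 20 normalized counts in the mitochondria and 12 and 9 in the rest fraction. Over these libraries Rdm1 was thus not lower in the mitochondria, but its values are low, and the part of hosts in the U2 values was not tested.

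U1 also had lower values in the mitochondria, but the replicates of each fraction were too far apart for a call. The 29 U1 genes (19 of the U1a type, which is the printed sequence, and 10 of the U1b type) summed to 3138 and 682 normalized counts in mitochondria 1 and 2 and to 5109 and 1911 in rest 1 and 2. The highest mitochondrial value lay above the lower rest value, and replicate 1 was 4.60 times replicate 2 in the mitochondria and 2.67 times in the rest fraction. All 22 U1 genes tested had negative log2 fold changes, with a median of −1.08 over 13 U1a genes and −0.84 over 9 U1b genes, none was called (lowest adjusted p = 0.316), and in none did the fractions separate. Without mitochondria 2 these medians became −0.15 and 0.25. Rnu1a1 had 174 and 51 against 351 and 115 normalized counts (−1.08 ± 0.79, adjusted p = 0.403). Gm22513 (T60C, counted from the 5′ end of Rnu1a1) had the highest values of the family, 554 and 97 against 826 and 252 (−0.97 ± 1.00, adjusted p = 0.542), and without mitochondria 2 its log2 fold change became 0.28.

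The less abundant snRNAs had few reads in the mitochondria. The 5 U5 genes summed to 28 and 16 normalized counts in the mitochondria, which were 7 and 6 reads, and to 108 and 105 in the rest fraction, 5.34 times more by reads (95% exact interval 3.10 to 10.1). Gm25099 was the U5 gene that passed the test (−2.88 ± 0.44, adjusted p = 0.0482), with 4 and 3 normalized counts, a single read each, against 30 and 34, and a ratio by reads of 10.3 (95% exact interval 2.82 to 85.8). Gm25313 (4 and 5 against 28 and 27, adjusted p = 0.0551) and Rnu5g (8 and 5 against 33 and 27, adjusted p = 0.0645) lay close to it. Both fractions were separate in all 4 U5 genes tested, but each of them reached 10 normalized counts in the rest libraries alone. The filter thus fixed this separation and its direction.

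U4, U6 and U12 had no gene that passed the test. The 3 U4 genes summed to 65 and 26 normalized counts in the mitochondria and to 222 and 79 in the rest fraction. Gm24265, the U4 gene printed above, had 15 and 26 against 127 and 40 (−1.80 ± 0.64, adjusted p = 0.149), and its near copy Gm24407 had 50 and 0 against 89 and 39, so that its fractions overlapped. The 9 U6 genes summed to 28 and 11 against 48 and 130, and only Gm22580 (8, 0, 13 and 31 in mitochondria 1, mitochondria 2, rest 1 and rest 2) and its identical copy Gm23512 (8, 5, 10 and 31) were tested. Rnu12 had 4 and 8 against 31 and 20 (−1.95 ± 0.53, adjusted p = 0.0942), which were 1 and 3 reads in the mitochondria and gave a ratio of 4.29 by reads (95% exact interval 1.64 to 15.9). In each of these families the summed mitochondrial values lay below both rest values. Rnu12 and both tested U6 genes reached 10 normalized counts in the rest libraries alone, so the filter fixed their direction.

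**Figure D2:**
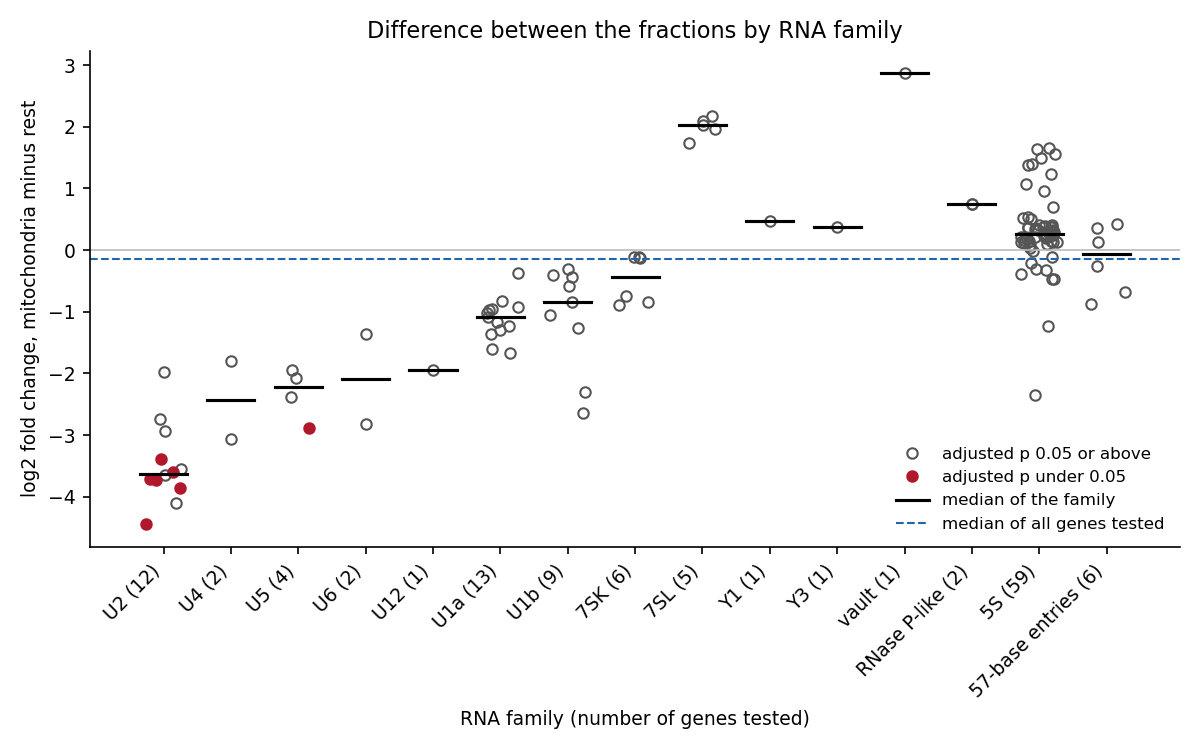
Log2 fold change (mitochondria minus rest) of every tested gene by RNA family, with the number of genes tested in brackets; filled red points have an adjusted p under 0.05 in limma, black bars are family medians and the dashed line is the median of all genes tested. U2 lies lowest with a median of −3.62, the U1 types lie near −1, and 7SL at 2.02 and vault RNA at 2.87 lie highest without a call.

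Ratios between RNA families inside a library do not depend on how the libraries are scaled. In summed normalized counts per base, U2 stood at 0.131 and 0.290 times U1 in mitochondria 1 and 2. In rest 1 and 2 it stood at 0.776 and 1.68 times U1. The authors' text says that reads on several regions were excluded, so families with identical copies may be counted less fully. These ratios are therefore compared between libraries and do not give the relative abundance of the RNAs. Relative to 7SK, U2 stood at 0.148 and 0.145 in the mitochondria and at 1.33 and 1.19 in the rest fraction, with replicates that lay close together. U1 relative to 7SK was 1.13 and 0.501 in the mitochondria and 1.71 and 0.706 in the rest fraction, and these values overlapped. The ratios of U2 to U1 and to 7SK were lower in both mitochondrial libraries than in either rest library, but an exact two-sided permutation test of 2 libraries against 2 cannot give a p below 0.333.

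**Figure D3:**
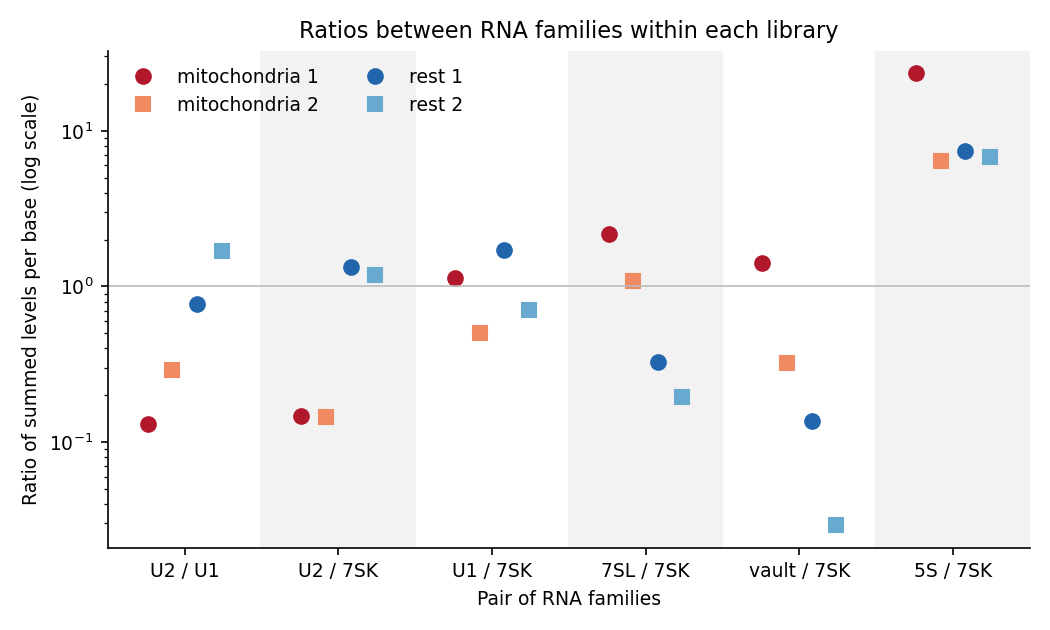
Ratio of the summed levels per base of a pair of RNA families (log scale) within each library. U2 against 7SK is near 0.15 in both mitochondrial libraries and above 1 in both rest libraries, 7SL and vault RNA against 7SK are higher in the mitochondria, and 5S against 7SK is high in mitochondria 1 alone.

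7SK, a nuclear RNA like the snRNAs, had negative log2 fold changes with a smaller median difference than either U1 type. Rn7sk (chromosome 9), the main gene, had 3137 and 1788 normalized counts in the mitochondria and 3971 and 3939 in the rest fraction (−0.74 ± 0.31, adjusted p = 0.191). The mitochondrial values lay below both rest values, but the 2 mitochondrial libraries differed from each other by more than mitochondria 1 did from the rest fraction. All 6 tested genes of the family had negative values (median −0.43) and none was called. The copy Gm26315, in an intron of Celf2 on the same strand, had 1084 and 378 against 773 and 612.

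7SL had higher values in the mitochondria in every gene. Rn7s1 had 4121 and 1000 normalized counts in mitochondria 1 and 2 and 689 and 361 in rest 1 and 2. Rn7s2, which has the same sequence of 300 bases, had 3443 and 852 against 516 and 280, and Rn7s6 had 1073 and 278 against 246 and 108. In all 5 7SL genes both mitochondrial values lay above both rest values, a pattern found in 27.7% of all genes tested. The log2 fold changes ran from 1.74 to 2.17 with a median of 2.02, but no gene passed the test: Rn7s1 2.02 ± 0.75 (adjusted p = 0.157), Rn7s2 2.17 ± 0.73 (adjusted p = 0.137), and Gm24514, the least abundant copy with 77 and 46 against 23 and 9, 1.97 ± 0.55 (adjusted p = 0.101). In summed normalized counts per base, 7SL stood at 2.16 and 1.08 times 7SK in the mitochondria and at 0.328 and 0.194 times in the rest fraction. Replicate 1 exceeded replicate 2 in both fractions, 4.11 times in the mitochondria and 1.87 times in the rest fraction. Scaled to the library total or to the mitochondrial chromosome, the median of 7SL became −1.88 or −2.43, while the median of all genes moved to −3.93 or −4.43.

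Vault RNA had the highest log2 fold change of the 127 tested genes, with a large spread. Vaultrc5 had 3459 and 383 normalized counts in the mitochondria and 355 and 69 in the rest fraction (2.87 ± 1.29, adjusted p = 0.213). Both mitochondrial values exceeded both rest values, but mitochondria 2 and rest 1 were almost equal. Without mitochondria 1 the log2 fold change was 1.28 and without mitochondria 2 it was 4.45. The Y RNAs overlapped between the fractions: Rny1 had 155 and 46 against 55 and 67 (0.47 ± 0.61, adjusted p = 0.627), and Rny3 had 562 and 115 against 189 and 202 (0.38 ± 0.76, adjusted p = 0.760). The RNase P-like genes Rprl3 (178 and 41 against 63 and 41) and Rprl2 (39 and 18 against 17 and 14) did not pass the test, and Rpph1, Rmrp and Terc are not analysed here. In all of these RNAs mitochondria 1 held the highest value.

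The Y RNAs are printed as listed in GENCODE M21 for GRCm38, since the table holds a single gene of each, both on chromosome 6. Rny1 lies at chr6:47788069-47788180 on the minus strand and Rny3 at chr6:47781624-47781725 on the plus strand.
Rny1: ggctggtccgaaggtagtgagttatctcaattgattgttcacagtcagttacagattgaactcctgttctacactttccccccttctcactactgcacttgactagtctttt
Rny3: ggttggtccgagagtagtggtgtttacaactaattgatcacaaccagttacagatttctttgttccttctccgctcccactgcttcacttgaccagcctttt

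The rRNA biotype held 69 5S genes, 2 5.8S entries and the entry CT010467.1. The 5S genes summed to 47303 and 6306 normalized counts in mitochondria 1 and 2 and to 16136 and 13404 in rest 1 and 2, so that the rest values lay between the mitochondrial ones. Of these genes, 51 form a cluster on chromosome 8 inside an intron of Gm20388, on the opposite strand, and this cluster held 46735, 6135, 15988 and 13056 of the normalized counts. The 18 genes elsewhere summed to only 568, 171, 148 and 348. Over 59 tested 5S genes the median log2 fold change was 0.26, with 49 positive and 10 negative and 0 called by limma (0 at an unadjusted p under 0.05). Over the 5S and 5.8S genes together the median was 0.25, −1.21 without mitochondria 1 and 1.72 without mitochondria 2, so no direction can be given.

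In the cluster 32 genes, Rn5s among them, have one and the same sequence, and these had medians of 1185, 143, 388 and 307.5 normalized counts in mitochondria 1, mitochondria 2, rest 1 and rest 2. Rn5s itself had 1243, 255, 424 and 480 (0.32 log2 fold change). In mitochondria 1 the genes lay between 767 and 3478, and in rest 1 between 240 and 1229. The highest value in both was Gm25018 (3478, 250, 1229 and 597), and the next highest gene of mitochondria 1 had 1313. If reads of one sequence were spread over its copies at random, the variance of reads over the copies would be near their mean. The authors' text says that reads on several regions were excluded, so random placement is a yardstick here and not a model of these counts. For the 7 identical U1a genes the variance over the mean was 0.72 and 1.19 in the mitochondria and 5.81 and 3.45 in the rest fraction. For the 32 5S genes it was 38.5, 2.90, 217 and 32.6, so that the variance exceeded the mean in every library. A few genes weigh on these values. Gm25018 was the highest of the 32 in mitochondria 1, rest 1 and rest 2. In mitochondria 2 Rn5s (255) and Gm25018 (250) stood above a median of 143. The ratio was not computed without them, so it does not show how the remaining 5S genes vary. A variance above the mean was not limited to 5S. For the 4 identical U2 genes the variance over the mean was 2.88 and 1.73 in the mitochondria and 69.8 and 49.0 in the rest fraction. For the 3 identical 57-base entries it lay between 3354 and 52132. Altogether 73 of the 173 genes fall into 15 groups of identical sequence, and their values cannot be assigned to single genes from the sequence alone.

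**Figure D4:**
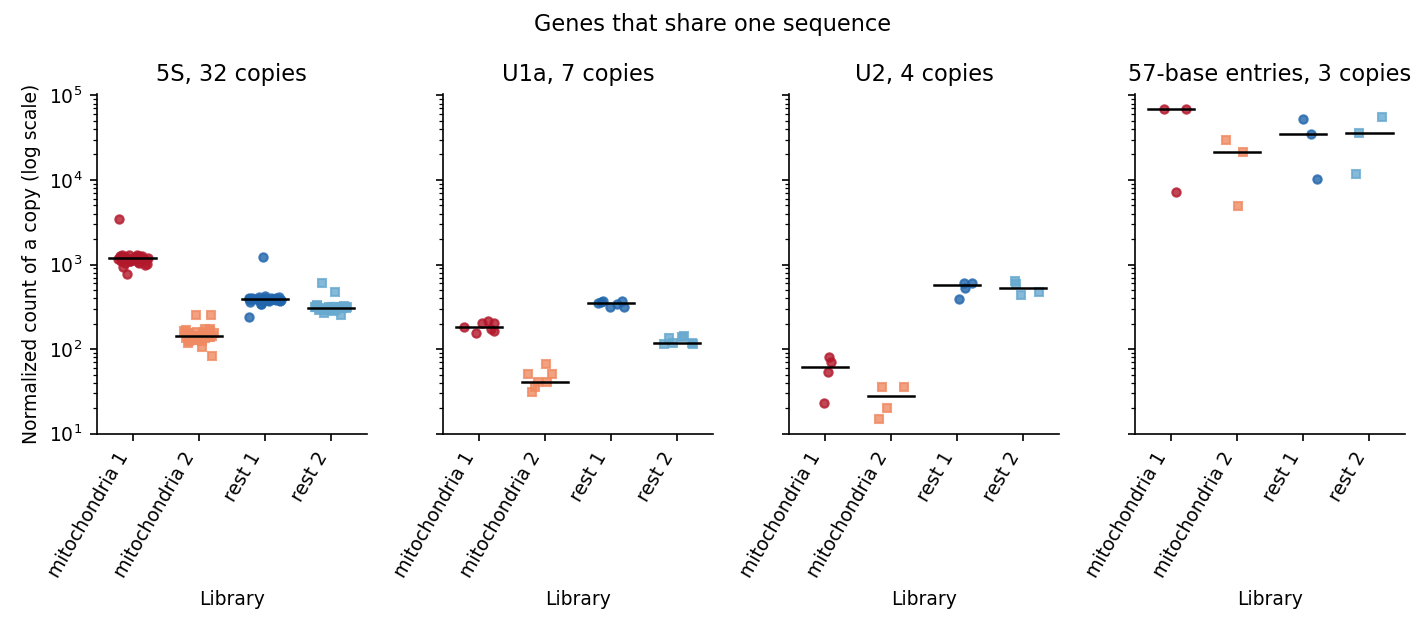
Normalized count (log scale) of each gene in 4 sets of genes that share one sequence, by library, with a bar at the median of the set. The 7 U1a genes lie close together in each library, 1 of the 32 5S genes stands apart in mitochondria 1 and rest 1, and 1 of the 3 identical 57-base entries lies far below the other two in every library.

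CT010467.1, an rRNA entry of 1849 bases on chromosome 17, overlaps exons of Gm42418 on the opposite strand and of AY036118 on the same strand. It had 20798 and 113238 normalized counts in mitochondria 1 and 2 and 7258 and 153292 in rest 1 and 2. Replicate 2 was high and replicate 1 was low in both fractions, and the fractions overlapped (0.54 ± 1.67, adjusted p = 0.844). It alone made up 51.8% of the normalized counts of all small RNAs in mitochondria 2 and 44.7% in rest 2, but 5.59% in mitochondria 1 and 3.77% in rest 1. The 5.8S-like entry Gm24601 had 15 and 3 against 3 and 17, and the 5.8S gene n-R5-8s1 had 19 and 0 against 7 and 1.

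The normalized counts of the miRNA biotype lay mostly in a group of 6 short entries. The entries Gm23935, Gm24270, Gm24245, Gm24187, Gm25911 and Gm23388 are 56 or 57 bases long, lie on different chromosomes and share almost the same sequence, which is printed here from GENCODE M21 for GRCm38 to show how little they differ. Gm23935 (chr16:11144125-11144181, plus strand), Gm24270 (chr9:56223715-56223771, minus strand) and Gm24245 (chr4:139338304-139338360, plus strand) are identical. Capitals mark the bases of Gm24187 (chr13:9834469-9834525, minus strand; G11A) and Gm23388 (chr8:85112012-85112068, minus strand; G2T, C16G, G21T and G48T) that differ from Gm23935. Gm25911 (chr1:167340369-167340424, minus strand) is 1 base shorter, and its differences are not marked.
Gm23935: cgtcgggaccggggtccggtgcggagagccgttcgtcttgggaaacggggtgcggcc
Gm24187: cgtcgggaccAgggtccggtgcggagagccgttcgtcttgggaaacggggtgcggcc
Gm23388: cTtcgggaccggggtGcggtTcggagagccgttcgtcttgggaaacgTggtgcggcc
Gm25911: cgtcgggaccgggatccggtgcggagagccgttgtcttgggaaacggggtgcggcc

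These 6 entries summed to 278049 and 89968 normalized counts in the mitochondria and to 149989 and 152606 in the rest fraction, which was 74.8%, 41.1%, 77.9% and 44.5% of all small RNA normalized counts in mitochondria 1, mitochondria 2, rest 1 and rest 2. The rest libraries lay close together, and the mitochondrial libraries lay on either side of them. Gm23935 had 68986, 29672, 52174 and 55621, and Gm24270, with the same sequence, had 68691, 21588, 34972 and 35514. Gm24245, also identical, had only 7219 and 4865 against 10135 and 11674 (−0.88 ± 0.28, adjusted p = 0.123). Gm25911 had 64570, 14974, 24304 and 21951 (0.43 ± 0.74, adjusted p = 0.720), and Gm23388, with 4 changed bases, had 39, 18, 44 and 42. None of the 6 was called. The abundant entry Gm24270 lies in an intron of Peak1 on the same strand, and Peak1 had 225, 275, 409 and 419 normalized counts. The low entry Gm23388 lies in an intron of Zfp791 on the same strand, and Zfp791 had 31, 13, 3 and 4.

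Of the 15 miRNA genes, 5 have a mature sequence in RefSeq (GRCm38.p6), printed here with the seed, bases 2 to 8 of the mature RNA, in capitals to show that no 2 of them share a seed. These microRNAs are 19 to 23 bases long, below the 30 bases to which the authors kept trimmed reads, so that a read no longer than the mature RNA would have been dropped.
mmu-miR-1a-1-5p: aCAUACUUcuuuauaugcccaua
mmu-miR-208b-3p: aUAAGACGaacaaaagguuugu
mmu-miR-208b-5p: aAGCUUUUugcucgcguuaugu
mmu-miR-703: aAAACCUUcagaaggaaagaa
mmu-miR-6236: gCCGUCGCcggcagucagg
mmu-miR-2137: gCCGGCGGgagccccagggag

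The heart microRNA genes were near the limit of detection. Mir1a-1, the gene of a microRNA abundant in heart muscle, was listed at 0 in both mitochondrial libraries and at 5 and 4 in the rest fraction, and Mir133a-2, made from the same primary transcript, at 0 and 0 against 4 and 1. In the mitochondria 3 reads correspond to 11.6 and 7.65 normalized counts, so that the values of the rest fraction would be fewer than 3 reads there. Mir208b had 0 and 3 against 9 and 7 and lies in an intron of Myh7, the slow myosin heavy chain, on the same strand. Myh7 had 22215 and 16387 against 21445 and 19468. Mir6236 had far more, 732 and 2145 against 359 and 11052 (−0.67 ± 1.69, adjusted p = 0.811), and Mir2137 had 0 and 5 against 0 and 32. In both genes replicate 2 was the higher one in each fraction, as in CT010467.1.

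The difference between replicates was itself large for these RNAs. In the mitochondria 118 of the 127 tested genes were higher in replicate 1 than in replicate 2, with a median log2 difference of 2.28, beside 6123 of 12150 genes and a median of 0.02 over all genes tested. In the rest fraction 90 of 127 were higher in replicate 1, with a median of 0.32, beside 5892 of 12150. The 59 5S genes were all higher in mitochondria 1 (median log2 difference 2.92), while U2 (median 0.80), 7SK (0.74) and the 57-base entries (1.44) differed less. The snoRNAs and scaRNAs of the table, which are also short nuclear RNAs, had a median log2 difference of only 0.32 in the mitochondria. Their median log2 fold change between the fractions was −2.99 over 37 genes, of which 6 were called lower.

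**Figure D5:**
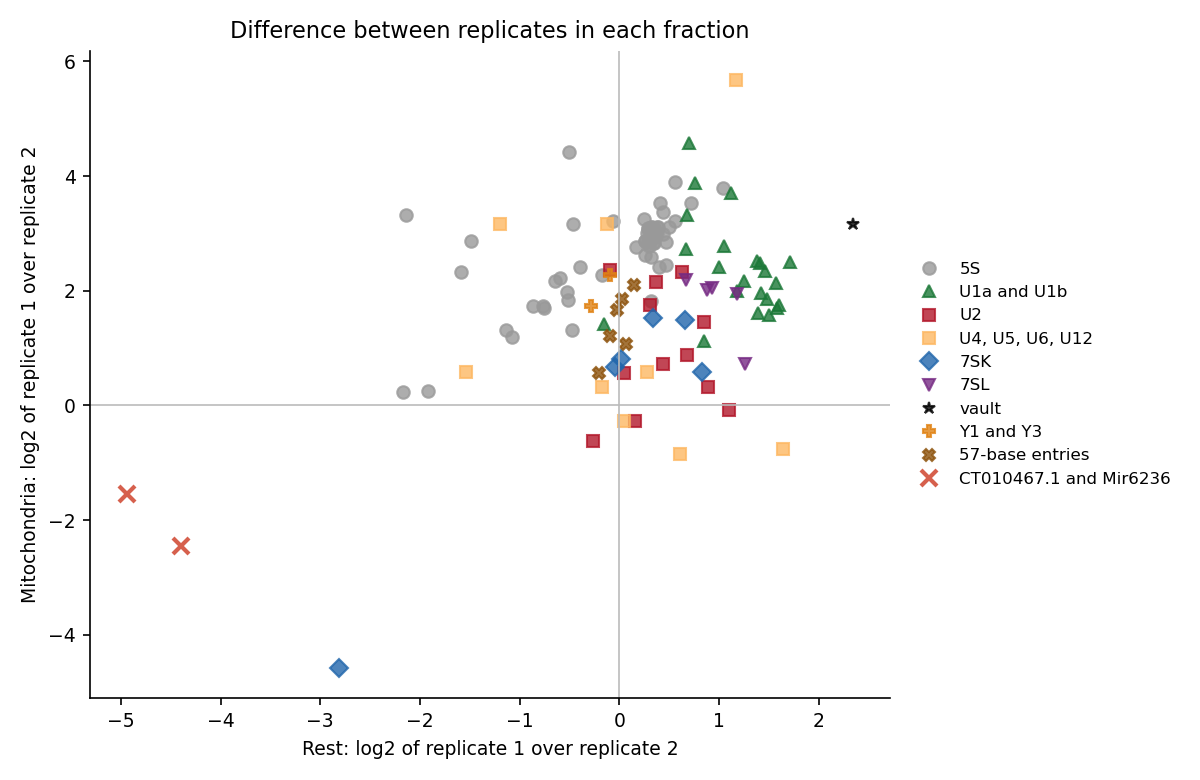
Log2 difference of replicate 1 over replicate 2 in the mitochondria (vertical) against the same in the rest fraction (horizontal) for the tested genes of each family; each point is a gene. All 5S, U1, 7SL and vault genes lie above 0 in the mitochondria, all of the U1, 7SL and vault genes but 1 also lie to the right of 0, and CT010467.1, Mir6236 and the low 7SK copy Gm22058 lie at the lower left with higher values in replicate 2.

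The mRNAs of proteins that bind or make these RNAs gave few calls. The spliceosomal snRNP list holds the common core proteins and proteins of the major and minor spliceosome, and of its 41 genes 36 were tested and none was called by limma, with a median log2 fold change of 0.25 (12 higher and 2 lower at an unadjusted p under 0.05, which 14.1% and 16.2% of all genes passed). Snrpe, a core protein, had 35 and 46 normalized counts in the mitochondria and 10 and 12 in the rest fraction (adjusted p = 0.0605), and Lsm7, of the ring on U6, had 39 and 26 against 9 and 9 (adjusted p = 0.0718). Both had higher mitochondrial values, while Prpf8, a core protein of U5, had lower ones, with 368 and 337 against 727 and 695 (adjusted p = 0.0502, the lowest of the list). Prpf8 was chosen after its values were seen. Of the 15 genes for making snRNAs 13 were tested and none was called (median −0.45), and Snapc4, a subunit of the snRNA promoter factor, had 15 and 5 against 49 and 37 (adjusted p = 0.0940). No gene was called among 6 of 7 listed for 7SK (median −0.33), 5 of 10 for RNase P and MRP (median 0.70), or 5 of 6 for Y RNA and vault (median −0.61). Pop5, of the RNase P and MRP list, had 46 and 36 normalized counts in the mitochondria and 10 and 13 in the rest fraction (limma adjusted p = 0.0625).

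The signal recognition particle was the list with genes called higher. Of its 8 genes, all tested, 2 were called, against 2.16% of all genes, and the median was 0.51. Srp9 and Srp14 encode the protein pair that binds the Alu end of 7SL. Srp9 had 151 and 143 normalized counts in the mitochondria and 43 and 46 in the rest fraction (1.70 ± 0.21, adjusted p = 0.0427), and Srp14 had 287 and 268 against 76 and 69 (1.92 ± 0.19, adjusted p = 0.0427). Their replicates lay close together, unlike those of 7SL. Of the 13 genes for microRNA processing and silencing, all tested, 1 was called lower, against 1.39% of all genes, and the median was −0.77. It was Tnrc6b, a partner of Argonaute, with 236 and 222 against 582 and 511 (−1.25 ± 0.17, adjusted p = 0.0455). At an unadjusted p under 0.05 in limma, 8 of the 13 were lower and 0 were higher, beside 16.2% and 14.1% of all genes.

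The 46 genes that could not be tested were 23 snRNA, 11 rRNA, 8 miRNA and 4 misc_RNA genes. Their highest values were 22, 27, 32 and 18 normalized counts, and 13 of them were listed at 0 in both mitochondrial libraries.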

How the data were processed

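The 4 libraries were made from adult mouse hearts, 2 from isolated mitochondria and 2 from the rest fraction. The authors read 75 bases of stranded total RNA libraries from one end, dropped trimmed reads under 30 bases (Trimmomatic), aligned with STAR to GRCm38, counted reads over exons with featureCounts and used DESeq2. Their text says that reads on several genes or regions were excluded, and the use of strand in counting is not given in the sources used here. The labels and the paper name different columns for RNA isolation, which retain short RNA differently. The deposited signal is a gene's count divided by its library's size factor and rounded by the authors, called normalized count here.

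Reads were estimated from the spacing of low values, which did not restore whole counts in the rest libraries, so no count test was run. limma 3.58.1 (R 4.3.3) was fitted with a mean-variance trend on log2(normalized count + 1), a scale that understates fold changes of low genes. Tested were 12150 genes that reached 10 normalized counts in 2 libraries or more, with Benjamini-Hochberg adjustment over all of them and calls at 0.05. The fit was tested on simulated data. Intervals of read ratios are exact binomial (Clopper-Pearson) at 95% and cover counting error only.

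RNA families were assigned by symbol and by blastn 2.17.0 on GENCODE M21 transcripts over at least 50 aligned bases, and some sequences are not reported here. Genes and lists were chosen with earlier results of these data known. Named were the highest and the called genes of each biotype, genes with an assigned RNA name, hosts, and the called and most changed partners. Of the marker lists for endothelium, fibroblasts, smooth muscle, erythroid cells and leukocytes, Tagln is not analysed here and Myh11 alone was called (lower in mitochondria).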

Additional observations from a re-analysis of the deposited data

How the results depend on the processing

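With 2 libraries a fraction and about 1 to 10 reads on many of these genes in the mitochondria, only large differences could be called. Of the 127 tested genes 7 were called lower and 0 higher. The count of lower genes became 126 when values were scaled to the library total, 21 to the total without the mitochondrial chromosome, 127 to the mitochondrial chromosome, 0 with a pseudocount of 0.1 and 12 with one of 10; with a mean above 50 normalized counts 1 gene, Rn7s2, was called higher. With recomputed size factors, TMM or no filter on low values the count stayed within 1.5 times. Without any one library no gene of the table was called by limma in either direction (lower members: lowest 0, highest 0; higher members: 0 and 0), while 8 to 71 members were lower and 0 to 53 higher at an unadjusted p under 0.05. The 3 scalings moved the median of all genes to −3.93, −0.98 and −4.43, and relative to that median U2 stayed between −3.58 and −3.50.

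For class medians, scaling to the library total and to the mitochondrial chromosome gave −3.70 and −4.25 for 5S and 5.8S rRNA, −4.41 and −4.94 for 7SK, −1.88 and −2.43 for 7SL, −3.10 and −3.62 for RNase P RNA, −3.52 and −4.06 for Y RNA, −4.24 and −4.79 for microRNA hairpins, −5.28 and −5.79 for spliceosomal snRNA and −1.11 and −1.65 for vault RNA. The tested microRNA hairpins were only Mir6236 and the 6 near-identical entries of 56 or 57 bases, and no named heart microRNA gene was among them. The total without the mitochondrial chromosome gave −1.30 for 7SK and −0.090 for RNase P RNA. Leaving out a library gave −1.21 to 1.72 for 5S and 5.8S rRNA, −1.01 to −0.42 for 7SK, 1.00 to 3.04 for 7SL, −0.05 to 1.54 for RNase P RNA, −0.58 to 1.43 for Y RNA, −0.71 to 0.36 for microRNA hairpins, −2.37 to −0.37 for spliceosomal snRNA and 1.28 to 4.45 for vault RNA.

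Single genes changed sign with the library total and with the mitochondrial chromosome, in that order: Rn7s1 (−1.96, −2.51), Rn7s2 (−1.81, −2.36), Gm24514 (−1.87, −2.40), Vaultrc5 (−1.11, −1.65), Rny1 (−3.45, −3.98), Rny3 (−3.59, −4.13), Rprl3 (−3.18, −3.71), Rn5s (−3.66, −4.20), Gm25911 (−3.56, −4.11) and CT010467.1 (−3.45, −3.99). Scaled to the total outside that chromosome, Rny1 (−0.38), Rny3 (−0.48), Rprl3 (−0.11), Rn5s (−0.54), Gm25911 (−0.44) and CT010467.1 (−0.32) did. Without a library the ranges were −2.22 to 0.28 for Gm22513, −0.39 to 1.34 for Rny1, −0.76 to 1.52 for Rny3, −0.30 to 1.79 for Rprl3, −0.82 to 1.46 for Rn5s, −0.63 to 1.48 for Gm25911, −1.66 to 2.74 for CT010467.1 and −3.14 to 1.80 for Mir6236. The cause was not tested.

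Of 86 tested partner genes 2 were called higher and 1 lower. Higher were 0 when scaled to the library total, 1 to the total of the other chromosomes, 0 to the mitochondrial chromosome, 4 with a mean above 50, 0 and 5 with pseudocounts of 0.1 and 10. Lower were, in the same order, 86, 30, 86, 8, 0 and 5, and 3 with recomputed size factors, 3 with TMM and 2 without a filter. Without any one library 0 were called either way.

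The replicate numbers come from the labels, and nothing says that they mark shared animals. With the number as a replicate block 6 small RNAs were called higher (the 5 7SL genes and Vaultrc5) and 13 lower, the U5 gene Gm25099 not among them (adjusted p = 0.0548), and among the partners 2 higher and 5 lower. Deviations of same-numbered libraries correlated over genes with r = 0.130 over all tested genes and 0.403 over the small RNAs.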
